A study of Mus musculus with 37 samples.

Results

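The genes described here are 34 genes of mitosis and the G2/M phase of the cell cycle, named in a fixed list by gene symbol. For each gene the probe set with the highest mean over all 37 arrays was used, so measured values chose the probe set but not the gene. Of the 34 genes, 33 had a probe set with a single gene symbol, out of 18194 genes with such a probe set in the whole series, and all 33 passed the filter on low values. Ccnb1 was not analysed here.

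RNA was measured on 37 one-colour arrays of mouse primary astrocytes, which were isolated from newborn mice of postnatal day 0 to 1 and grown in medium with 20% fetal bovine serum. Male and female cells came from 129S4/SvJae mice (129) or from C57BL/6J mice (B6) and were nucleofected with 5 µg of pcDNA3.1-hygro carrying Cdca7l or with the empty pcDNA3.1-hygro vector, and the design text describes independent isolates with stable transfection. The groups were Cdca7l and vector cells of 129 males (5 and 5 arrays), 129 females (4 and 4), B6 males (5 and 5) and B6 females (4 and 5). All groups, vector cells included, went through the same electroporation and serum, and the labels give neither the number of mice behind an array nor what a clone label such as 4(1) stands for.

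These genes carry a cell from the end of G2 through division. Cdk1 with cyclins A and B starts mitosis, Aurora and Polo kinases build the spindle, the spindle checkpoint holds the anaphase-promoting complex until chromosomes are attached, and motor and bundling proteins then separate the daughter cells. Most of their promoters are silenced in resting cells by the DREAM complex and activated in G2 by MYBL2 and FOXM1, through the CHR element, which the MuvB subunit LIN54 binds, and through CCAAT boxes, which NF-Y binds. In newborn astrocyte cultures these RNAs are known as a readout of how many cells divide, and in a bulk sample fewer dividing cells and less RNA per cell cannot be told apart.

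Values are log2 expression, and the median of the table, 3.19, served as the background level. Near it array values compress fold differences. Of 13 measured astrocyte markers all exceeded the background level on all 37 arrays except Slc1a2 (36 arrays), S100b (13) and Gjb6 (3). Markers of other cells were present too. Of the microglia and macrophage markers, Cd68 and Fcer1g exceeded it on all 37 arrays, Laptm5 on 22, C1qb on 18, Tyrobp on 12 and Csf1r on 11, and Itgam, Cx3cr1 and Trem2 on none. The fibroblast genes Col1a1, Col1a2, Fn1 and Foxc1, the smooth muscle genes Acta2 and Tagln and the neuron genes Stmn2 and Map2 exceeded it on all 37, while the neuron genes Rbfox3 and Dcx did on none. Among endothelial markers Flt1 exceeded it on 8 arrays and Kdr on 4, and Pecam1, Cdh5 and Cldn5 on none. The fibroblast genes Dcn and Lum had mean levels of 4.15 and 3.31. The filter on low values passed 5 of 8 pericyte and smooth muscle markers, 5 of 10 neuron markers and 5 of 9 oligodendrocyte lineage markers. Among the last, mean levels were 11.47 for Olig1, 10.25 for Olig2 and 2.87 for Mbp. Cdca7l itself lay between 10.15 and 14.42 on the 18 Cdca7l arrays, against 4.12 to 10.43 on the 19 vector arrays, and within each strain and sex the groups did not overlap. A pair of arrays stood apart. The upper quartile of 129 female vector 1(3) was 8.36, against 9.04 to 9.51 on the other 36 arrays. The array labelled B6 female vector 5.1(1) had Xist at 2.40 and Eif2s3y at 11.91, while Xist lay at 10.71 or above and Eif2s3y at 2.73 or below on the other 16 female arrays. Both arrays were kept, and results without them are given beside those that rest on them.

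Since the members moved together, promoters are shown of members whose level followed the other members most closely within groups. They are the 5 closest among the 29 members with a promoter sequence. Ccna2 (r = 0.935) ranked above Anln, Cdc20 and Bub1 but had no such sequence. They were read from RefSeq (GRCm38.p6) from 250 bases before to 50 bases after the annotated start. The 5 belong to Cdca3, which promotes mitotic entry (chr6:124829926-124830225, plus strand), to the mitotic kinase Cdk1 (chr10:69352863-69353162, minus strand), to the contractile-ring protein Anln (chr9:22389157-22389456, minus strand), to the anaphase-promoting complex activator Cdc20 (chr4:118437294-118437593, minus strand) and to the checkpoint kinase Bub1 (chr2:127831810-127832109, minus strand). Each is written 5′ to 3′ on the gene's strand, and capitals mark CHR letters (TTTGAA or TTCGAA) and CCAAT, each on either strand.
Cdca3: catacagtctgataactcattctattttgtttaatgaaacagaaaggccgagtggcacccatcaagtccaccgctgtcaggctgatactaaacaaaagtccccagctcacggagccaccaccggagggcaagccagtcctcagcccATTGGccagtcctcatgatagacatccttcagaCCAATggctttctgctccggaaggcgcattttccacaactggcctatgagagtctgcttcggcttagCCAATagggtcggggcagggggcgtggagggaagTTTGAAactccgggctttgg
Cdk1: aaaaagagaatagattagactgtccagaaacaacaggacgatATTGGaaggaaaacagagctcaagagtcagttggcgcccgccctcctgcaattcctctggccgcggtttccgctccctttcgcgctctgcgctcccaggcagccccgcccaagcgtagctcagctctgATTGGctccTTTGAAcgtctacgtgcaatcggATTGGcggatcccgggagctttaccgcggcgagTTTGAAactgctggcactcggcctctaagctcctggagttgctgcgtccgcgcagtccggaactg
Anln: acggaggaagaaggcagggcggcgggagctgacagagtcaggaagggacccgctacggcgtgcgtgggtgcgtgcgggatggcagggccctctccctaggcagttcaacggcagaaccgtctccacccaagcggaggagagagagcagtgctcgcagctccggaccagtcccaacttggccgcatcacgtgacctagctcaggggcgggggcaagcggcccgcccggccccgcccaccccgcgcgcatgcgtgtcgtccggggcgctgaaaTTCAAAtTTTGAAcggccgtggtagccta
Cdc20: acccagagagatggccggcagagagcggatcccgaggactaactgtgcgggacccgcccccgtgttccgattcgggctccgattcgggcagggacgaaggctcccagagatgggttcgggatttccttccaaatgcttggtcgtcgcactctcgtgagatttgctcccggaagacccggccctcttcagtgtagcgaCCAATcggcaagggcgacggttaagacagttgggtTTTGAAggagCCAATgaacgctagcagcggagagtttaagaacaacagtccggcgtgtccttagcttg
Bub1: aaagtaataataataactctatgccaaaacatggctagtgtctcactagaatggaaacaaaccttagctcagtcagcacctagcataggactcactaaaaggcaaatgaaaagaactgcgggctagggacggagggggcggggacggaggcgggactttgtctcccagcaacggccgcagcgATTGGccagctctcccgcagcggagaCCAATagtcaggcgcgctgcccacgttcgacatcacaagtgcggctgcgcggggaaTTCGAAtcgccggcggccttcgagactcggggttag

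A promoter of this length was found for 29 of the 33 members, and 27025 genes in all had one. CHR letters were present in 23 of the 29 members' promoters (79.3%), against 19.4% of all promoters of the same length. CCAAT was present in 22 (75.9%, against 37.9%), more than once in 16 (55.2%, against 12.2%), and together with CHR letters in 20 (69.0%, against 7.7%). The letters TTTGGCGC, TTTCCCGC, TTTGCCGC or TTTCGCGC, forms of the E2F element, were present in 1 member, Cdk1 (3.4%, against 2.32%). All motifs were searched on both strands, and CHR and CCAAT letters were counted whether or not they overlapped. Nusap1, Tacc3, Nuf2 and Birc5 held neither CHR letters nor CCAAT in this window. The within-group correlation with the other members was 0.91 for Nusap1, Tacc3 and Nuf2 and 0.88 for Birc5. In the 20 members that hold both it ran from 0.78 for Hmmr to 0.95 for Cdca3.

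The members were measured over a wide range. Within each gene, the highest array exceeded the lowest by a median of 206-fold over the 33 members, against 8.23-fold over all 25579 tested probe sets, and by more than 100-fold in 24 members. Without 129 female vector 1(3), on which 13 members had their lowest value, the median was 126-fold and 20 members passed 100-fold. For the CDK-binding protein Cks2 that array decided the value, which was 1425-fold with it and 24.8-fold without it. The cytokinesis bundling protein Prc1 spanned 864-fold with it and 120-fold without it, while the proliferation marker Mki67 spanned 740-fold either way. The narrowest range, 16.5-fold, belonged to the spindle assembly factor Tpx2. On every array some members were detected, and 17 of the 33 exceeded the background level on all 37 arrays.

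Mki67, which coats mitotic chromosomes, shows the range by culture. In 129 males it lay at 11.23, 9.64, 11.38, 9.17 and 8.11 with Cdca7l, against 7.72, 9.38, 9.14, 10.23 and 9.00 with vector. In 129 females it lay at 12.24, 5.33, 11.74 and 9.69 with Cdca7l, against 12.14, 11.60, 5.62 and 9.30 with vector. In both plasmid groups of 129 females the clones 4(1) and 2(1) were the highest of all arrays. In B6 males the values were 9.91, 8.68, 2.77, 3.75 and 8.71 with Cdca7l, against 9.08, 8.89, 8.75, 8.98 and 7.16 with vector. In B6 females they were 10.88, 8.29, 9.24 and 8.73 with Cdca7l, against 10.21, 8.43, 8.65, 6.40 and 2.71 with vector. B6 male Cdca7l 5.6(1) and B6 female vector 2.1(1) lay below the background level, and the plasmid groups overlapped in every strain and sex.

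The kinase Cdk1, the engine of mitotic entry, had a narrower range of 61.1-fold. In 129 females it lay at 12.58, 6.70, 11.64 and 9.11 with Cdca7l, against 12.32, 11.63, 6.65 and 8.56 with vector. In 129 males it stayed between 9.65 and 10.33 with Cdca7l, against 9.52 to 10.45 with vector. In B6 males it lay between 7.58 and 9.71 with Cdca7l, against 8.96 to 9.58 with vector, and in B6 females between 8.86 and 10.48, against 8.02 to 9.66. The 129 females thus held both the highest and the lowest Cdk1 values of the series.

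**Figure D1:**
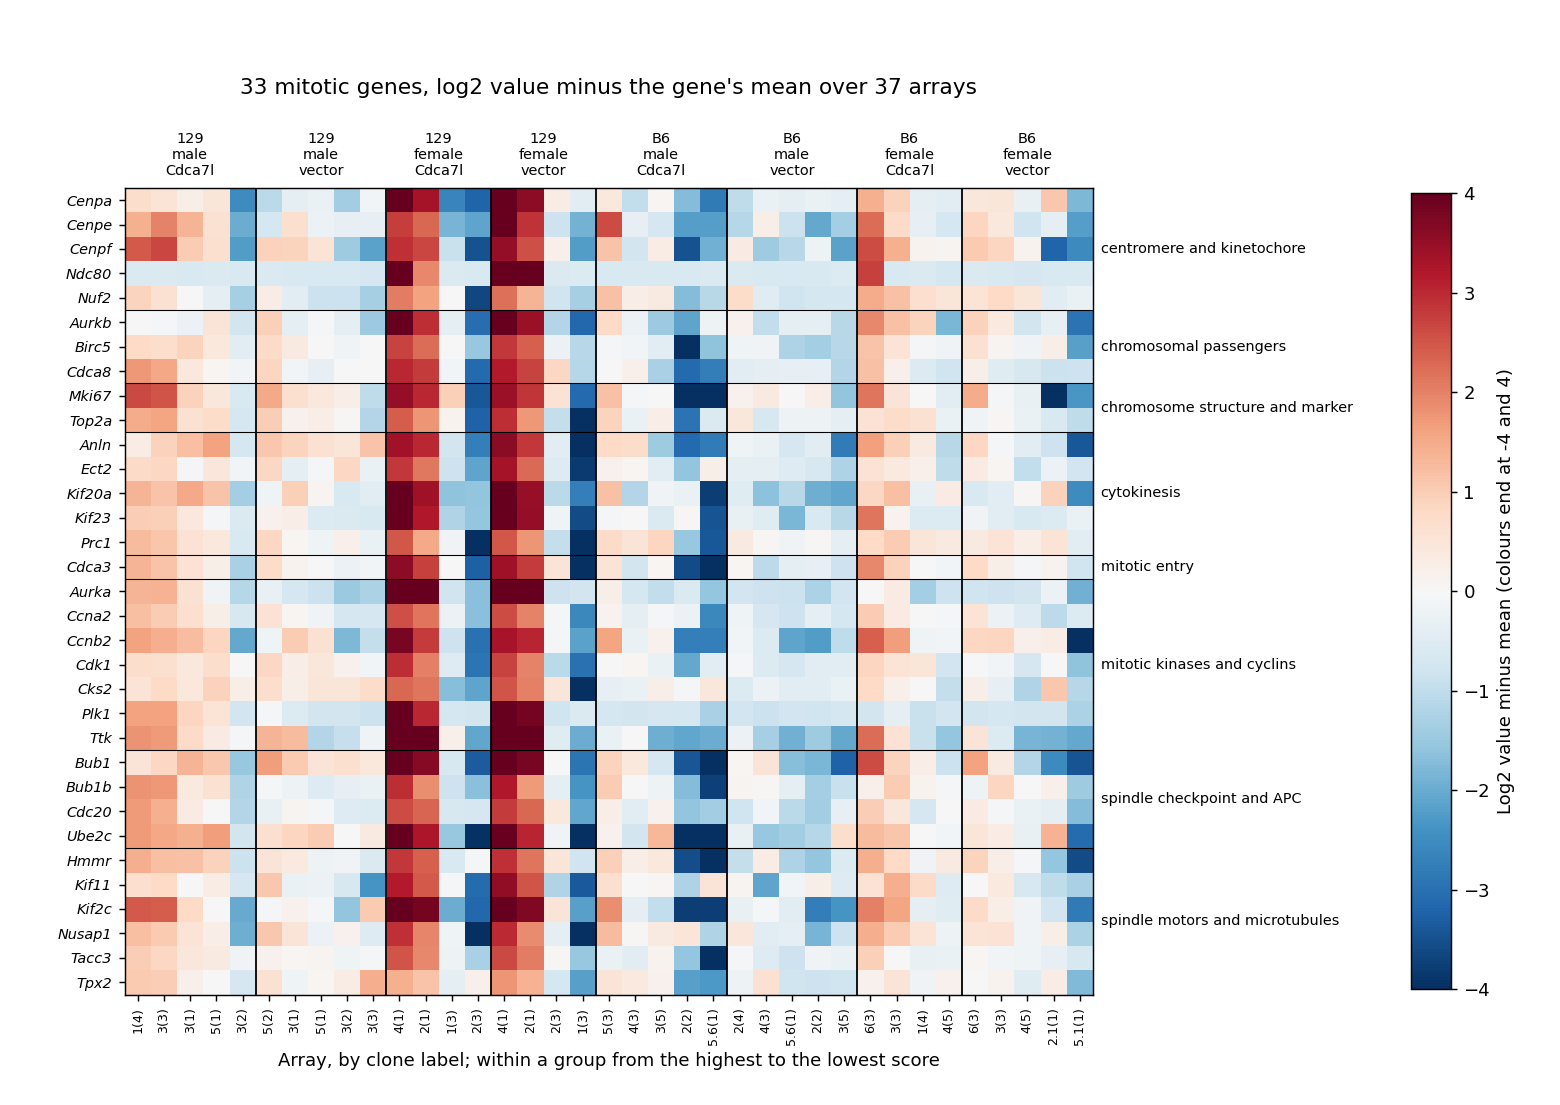
Log2 value of each of the 33 members minus its mean over the 37 arrays (colour, cut at -4 and 4), with genes in rows by role and arrays in columns by group. The columns of 129 female 4(1) and 2(1) are red in both plasmid groups, and Ndc80 and Plk1 are flat where they lie at background.

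The 33 members moved together from array to array. After removal of the 8 group means, all 528 pairs of members correlated above 0 over the 37 arrays, with a median r of 0.82 and a range of 0.42 to 0.98. Without the 129 female groups, 522 pairs were above 0 over 29 arrays and the median was 0.61. These correlations are descriptions over arrays some of which share clone labels. Each member also tracked the mean of the other members: the closest was Cdca3 (r = 0.95), and the least close were Cks2 (0.77), the kinetochore subunit Ndc80 (0.77) and the spindle protein Hmmr (0.78).

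For one value per array, each member was centred on its mean over the 37 arrays and the members' score was taken as their mean, in log2 units. In 129 females the score was 3.45 on Cdca7l 4(1), 2.59 on Cdca7l 2(1), -0.65 on Cdca7l 1(3) and -2.43 on Cdca7l 2(3). With vector it was 3.54 on 4(1), 2.76 on 2(1), -2.84 on 1(3) and -0.28 on 2(3). The clones 4(1) and 2(1) were thus high with either plasmid, and all 33 members had their highest value of the series on an array of clone 4(1), 13 with Cdca7l and 20 with vector. Over the 29 other arrays the score ran from -2.39 to 1.32. The members' score averaged 0.51 ± 0.876 in 129 males with Cdca7l and -0.03 ± 0.375 with vector (SD, n = 5 each). It averaged -0.87 ± 1.30 in B6 males with Cdca7l and -0.68 ± 0.329 with vector (SD, n = 5 each), and 0.39 ± 0.782 (n = 4) in B6 females with Cdca7l and -0.46 ± 0.834 (n = 5) with vector.

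**Figure D2:**
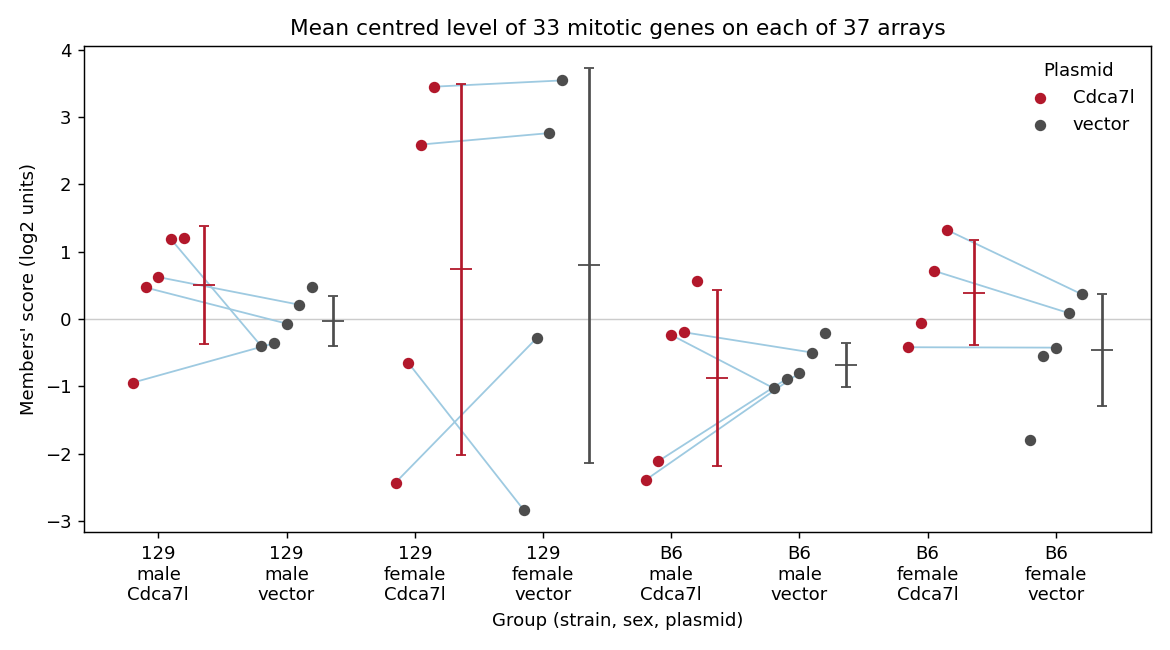
Members' score of each array (points, log2 units) in the 8 groups, red for Cdca7l and grey for vector, with the group mean ± SD at the right of each group. Light blue lines join Cdca7l and vector arrays with the same clone label. The 129 females span from -2.84 to 3.54, and the clones 4(1) and 2(1) are high in both plasmid groups.

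The spread between cultures of one group was larger for these genes than for most. The median within-group SD of the 33 members was 1.72 (log2, range 0.995 to 2.30), against 0.643 over all tested probe sets. Every member lay above the tested median, and 24 lay above the 90th percentile of tested probe sets. Without the 129 female groups the medians were 0.887 and 0.565, 31 members lay above the tested median and 8 above the 90th percentile. Differences between cultures of one group made up a median of 81.5% of a member's variation, against 75.3% for all tested probe sets. Ube2c, the ubiquitin-conjugating enzyme of the anaphase-promoting complex, had the largest within-group SD, 2.30, and Tpx2 the smallest. By group, the median SD of the members was 2.95 and 2.96 in 129 females with Cdca7l and vector, 1.498 and 0.616 in B6 males, 0.905 and 0.502 in 129 males and 0.729 and 0.835 in B6 females.

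**Figure D3:**
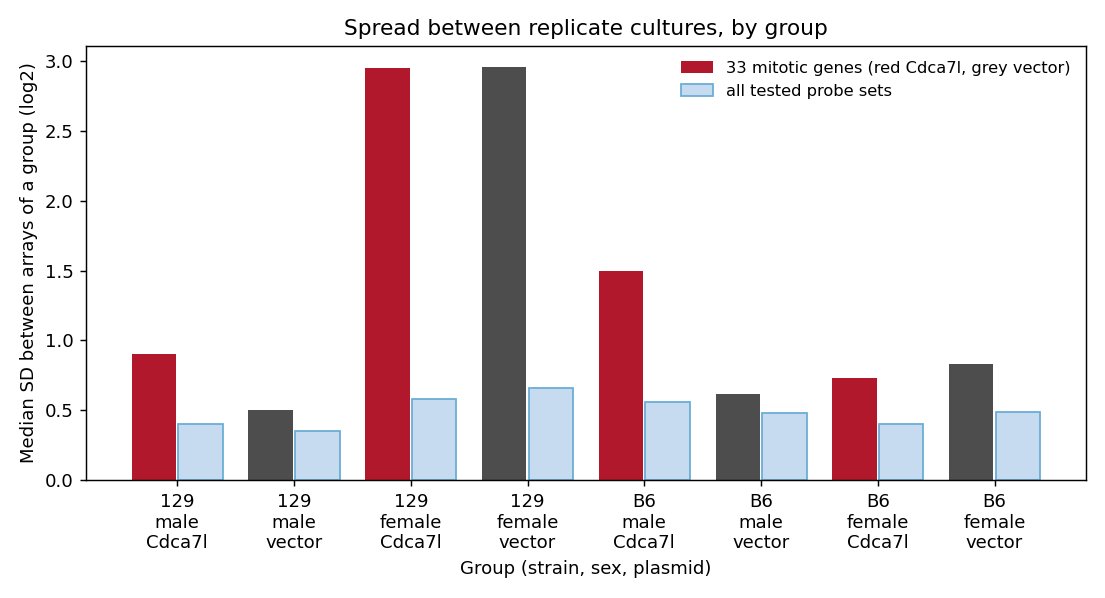
Median SD between the arrays of a group (log2) for the 33 members (red, Cdca7l; grey, vector) and for all tested probe sets (light blue). The members' bars exceed those of all tested probe sets in every group, and the 129 female groups reach 2.95 and 2.96.

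Within a strain and sex, 15 clone labels occur with both plasmids. Deviations of the score from the group means correlated at 0.72 over these 15 pairs, a description that rests in part on 129 females 4(1) and 2(1). The median over members of the same correlation was 0.66 (range 0.20 to 0.93), against 0.43 over all tested probe sets. Arrays of a pair differed in score by a median of 0.627, and any 2 arrays of a group by 0.788. The Cdca7l array had the higher score in 9 of the 15 pairs.

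Cdca7l is a MYC-binding nuclear protein named for its similarity to a cell division cycle associated gene, and the comparison of its plasmid with the vector was the study's main contrast. Averaged over strains and sexes, 29 of 33 members lay higher with Cdca7l, with a median difference of 0.29 (log2), against 55.2% higher and a median of 0.02 over all tested probe sets. None of the 33 passed the test (limma, adjusted p under 0.05), where 0.00782% of tested probe sets did, and none had an unadjusted p under 0.05. The smallest p belonged to the spindle motor Kif11, at 0.63 ± 0.506 (SE, limma, adjusted p = 0.999). The largest difference was that of Kif20a, a motor of the central spindle, at 0.65 ± 0.581. The direction rests on a few arrays: without 129 female vector 1(3), 15 members lay higher with a median of -0.02, without 129 female Cdca7l 2(3) all 33 lay higher with a median of 0.56, and without both arrays that stand apart 13 lay higher with a median of -0.08.

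Within 129 females 19 members lay higher with Cdca7l, with a median difference of 0.05, and none passed the test (0% of tested probe sets). Without 129 female vector 1(3) no member lay higher and the median was -1.24, and without 129 female Cdca7l 2(3) 31 lay higher and the median was 1.02. Within 129 males 30 lay higher, with a median of 0.61, and none passed (0% of tested). Aurka, the kinase of spindle poles, lay at 5.80, 5.01, 5.77, 4.27 and 3.27 in 129 males with Cdca7l, against 3.15, 3.71, 3.53, 4.10 and 2.93 with vector, a difference of 1.34 ± 1.08 (SE, limma, adjusted p = 1.00). The Cdca7l arrays were mostly higher, and the ranges overlapped. Within B6 females all 33 lay higher, with a median of 0.73, and none passed (0% of tested). The kinetochore protein Cenpf had the smallest p there, at 1.80 ± 1.26 (SE, limma, adjusted p = 1.00). With B6 female vector 5.1(1) left out, the median was 0.46 and 32 members lay higher. Within B6 males 12 lay higher, with a median of -0.11, and none passed (0% of tested). That direction turned with 1 array: the median was 0.25 with 20 higher without B6 male Cdca7l 2(2), 0.22 with 22 higher without 5.6(1), and -0.48 with 6 higher without 5(3). The B6 male clones 5.6(1) and 2(2) had scores of -2.39 and -2.11 with Cdca7l, against -0.80 and -0.89 with vector, while 4(3) and 3(5) had -0.20 and -0.24 with Cdca7l, against -0.50 and -1.03 with vector.

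A difference in the Cdca7l effect between groups was detected for no member, and the SE of these differences had a median of 1.11 (log2). None of 33 passed for the effect in males minus that in females (0% of tested), with a median of -0.15, or for the effect in 129 minus that in B6 (0% of tested), with a median of 0.01. None had an unadjusted p under 0.05 in either. Both medians turned with single arrays: without 129 female vector 1(3) they were 0.42 and -0.65. Within groups the members' score correlated with the level of Cdca7l at 0.48 over all 37 arrays, at 0.58 without the 2 arrays farthest from the median, at 0.46 without the 129 females, at 0.30 without 129 female vector 1(3) and at 0.12 over the 18 Cdca7l arrays. Averaged over strains and sexes, none of 8 tested microglia markers lay higher with Cdca7l, with a median of -0.93 and no call, while within B6 males all 8 lay higher, with a median of 0.77 and no call. Over all groups the summed log2 level of all 14 measured microglia markers, untested ones included, was 35.7 to 63.9 on Cdca7l arrays and 35.8 to 103.7 on vector arrays. Their part in the members' differences was not tested.

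Between the sexes, 29 of 33 members lay lower in males, with a median male minus female difference of -0.67, against 51.8% of tested probe sets higher in males and a median of 0.01. None passed the test averaged over strains (0.321% of tested did), and 4 had an unadjusted p under 0.05. These were Ndc80 at -1.39 ± 0.465 (SE), the centromeric histone Cenpa at -1.26 ± 0.555, Aurka at -1.24 ± 0.567 and the survivin gene Birc5 at -0.85 ± 0.410. Without both arrays that stand apart all 33 lay lower, with a median of -1.004 and no call. Within B6 all 33 lay lower in males, with a median of -0.74, and none passed (0.0352% of tested) or had an unadjusted p under 0.05. The array labelled B6 female vector 5.1(1), with Xist and Eif2s3y at male levels and a members' score of -1.80, was counted as female there. Without it all 33 lay lower, with a median of -0.82 and no call. Within 129, 25 lay lower in males, with a median of -0.50, and 1 passed, where 8.77% of tested probe sets did. Without 129 female vector 1(3) all 33 lay lower, with a median of -0.95 and 3 calls, and without 129 female Cdca7l 2(3) the median was -0.97 with 3 calls. Without 129 female vector 4(1) 19 lay lower, with a median of -0.11 and no call. The sex difference in 129 minus that in B6 had a median of 0.40 and no call (0% of tested), with 1 unadjusted p under 0.05. Its direction also turned with 1 array: the median was -0.16 without 129 female vector 1(3), -0.09 without 129 female Cdca7l 2(3) and 0.82 without 129 female vector 4(1), with 12, 12 and 29 members higher. Of cell type markers in 129, 1 of 8 fibroblast, 2 of 8 ependymal, 1 of 12 astrocyte and 1 of 8 neural progenitor markers rose in males. As 8.77% of tested probe sets passed there, 1 call in a list of this size is near the background share. The part of these cells in the members' differences was not tested.

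That 1 call was Ndc80, the kinetochore subunit that grips microtubules. It lay between 1.91 and 1.96 on the 5 Cdca7l arrays and between 1.87 and 1.96 on the 5 vector arrays of 129 males. In 129 females it lay at 8.26, 1.93, 4.46 and 1.94 with Cdca7l and at 7.34, 6.63, 1.99 and 1.94 with vector. The high values belonged to the clones 4(1) and 2(1), and every other 129 array was below background. The fitted difference was -2.39 ± 0.667 (SE, adjusted p = 0.0275). Of the arrays compared, only 129 female ones exceeded the background level, so Ndc80 passed the filter on low values through the group that is higher. With no filter on low values the adjusted p was 0.0359 (limma). As no male array exceeded the background level, the fold is a bound: Ndc80 was at least 2.18-fold lower in 129 males. The call was lost without 1 of the 129 female arrays of clones 4(1) or 2(1) in turn, and with a random replicate block on the clone label (adjusted p = 0.0822). In the whole series Ndc80 exceeded the background level on 5 arrays, and the only one outside 129 females was B6 female Cdca7l 6(3), at 5.28.

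Between the strains, 30 of 33 members lay higher in 129, with a median difference of 0.88 (log2), against 50.4% higher and a median of 0.00 over all tested probe sets. Of the 33, 7 passed the test, all higher in 129 (21.2%), where 25.2% of tested probe sets passed, so the share called was near the background of this comparison. The 7 were the kinases Plk1, Ttk and Aurka, the chromosomal passenger proteins Cdca8 and Birc5, and the spindle proteins Hmmr and Tacc3. Nuf2, Nusap1 and Prc1 had differences of -0.23, -0.14 and -0.20, none past the threshold. None of the 5 centromere and kinetochore members, the 4 members of the checkpoint and anaphase-promoting complex or the 5 cytokinesis members passed, with medians of 0.85, 1.04 and 1.02.

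Plk1, the Polo kinase of centrosomes and kinetochores, rose in 129. In 129 males it lay at 4.59, 3.83, 4.58, 3.53 and 2.19 with Cdca7l and at 2.12, 2.42, 2.24, 2.91 and 2.23 with vector. In 129 females it lay at 8.13, 2.24, 5.97 and 2.25 with Cdca7l and at 7.82, 6.80, 2.39 and 2.18 with vector. On the 19 B6 arrays it lay between 1.66 and 2.59. So 8 of 18 arrays of 129 exceeded the background level and none of B6 did. The fitted difference was 1.71 ± 0.447 (SE, adjusted p = 0.00582), and as a bound Plk1 was at least 1.63-fold higher in 129. Plk1 passed the filter on low values through 129 arrays alone, so the group that is higher also put it in the test. With no filter on low values the adjusted p was 0.0115 (limma).

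Ttk, the checkpoint kinase also called Mps1, had the largest difference, at 2.03 ± 0.582 (adjusted p = 0.0111). In 129 males it lay at 6.98, 6.05, 7.06, 5.59 and 5.24 with Cdca7l and at 5.11, 6.55, 4.10, 6.64 and 4.36 with vector. In 129 females it lay at 10.22, 3.18, 9.29 and 5.47 with Cdca7l and at 10.04, 9.60, 3.29 and 4.79 with vector. In B6 males it lay between 3.2 and 5.30 with Cdca7l and between 3.22 and 5.03 with vector. In B6 females it lay between 3.71 and 7.52 with Cdca7l and between 3.22 and 5.79 with vector. The strains overlapped, and the higher values of 129 were found in males as well as in the 129 female clones 4(1) and 2(1). The calls of Plk1 and Ttk held with each of the 37 arrays left out in turn.

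Aurka differed by 1.67 ± 0.567 (adjusted p = 0.0294). It lay between 2.93 and 5.80 on the 10 arrays of 129 males and between 2.74 and 10.31 on the 8 of 129 females, against 2.85 to 4.63 on B6 male and 2.48 to 4.74 on B6 female arrays. Cdca8, the borealin subunit of the chromosomal passenger complex, differed by 1.32 ± 0.435 (adjusted p = 0.0257). Birc5, another subunit, differed by 1.15 ± 0.410 (adjusted p = 0.0382), and Aurkb, the kinase of that complex, by 0.71 ± 0.609 (adjusted p = 0.403). The passenger genes thus all lay higher in 129, and the kinase did not pass. Hmmr differed by 1.40 ± 0.507 (adjusted p = 0.0414) and Tacc3, a microtubule stabiliser of the spindle, by 0.95 ± 0.351 (adjusted p = 0.0448). The last 2 calls were the least stable: with each of the 37 arrays left out in turn, Hmmr passed in 17 fits and Tacc3 in 10. With the random replicate block on the clone label, the calls of Cdca8 (adjusted p = 0.0548), Birc5 (0.0666), Hmmr (0.0679) and Tacc3 (0.0820) were lost, and those of Plk1 (0.00753), Ttk (0.0164) and Aurka (0.0367) held. Bub1, at 1.65 ± 0.696, and Mki67, at 1.63 ± 0.727, had larger differences than Hmmr and missed the threshold (adjusted p = 0.0779 and 0.0960).

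The number of members called between the strains moved with single arrays. Without both arrays that stand apart it was 17 of 33, where 27.6% of tested probe sets passed, and with array weights it was 29, where 47.4% passed. With a random replicate block on the clone label it was 3 (16.6% of tested), and with 1 array left out it ran from 2 without 129 female Cdca7l 4(1) to 18 without 129 female vector 1(3). In males alone none passed (10.5% of tested), and 10 did when the 129 female groups were left out of the fit (13.3% of tested). In both fits 31 members lay higher in 129 males, with a median of 0.90.

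**Figure D4:**
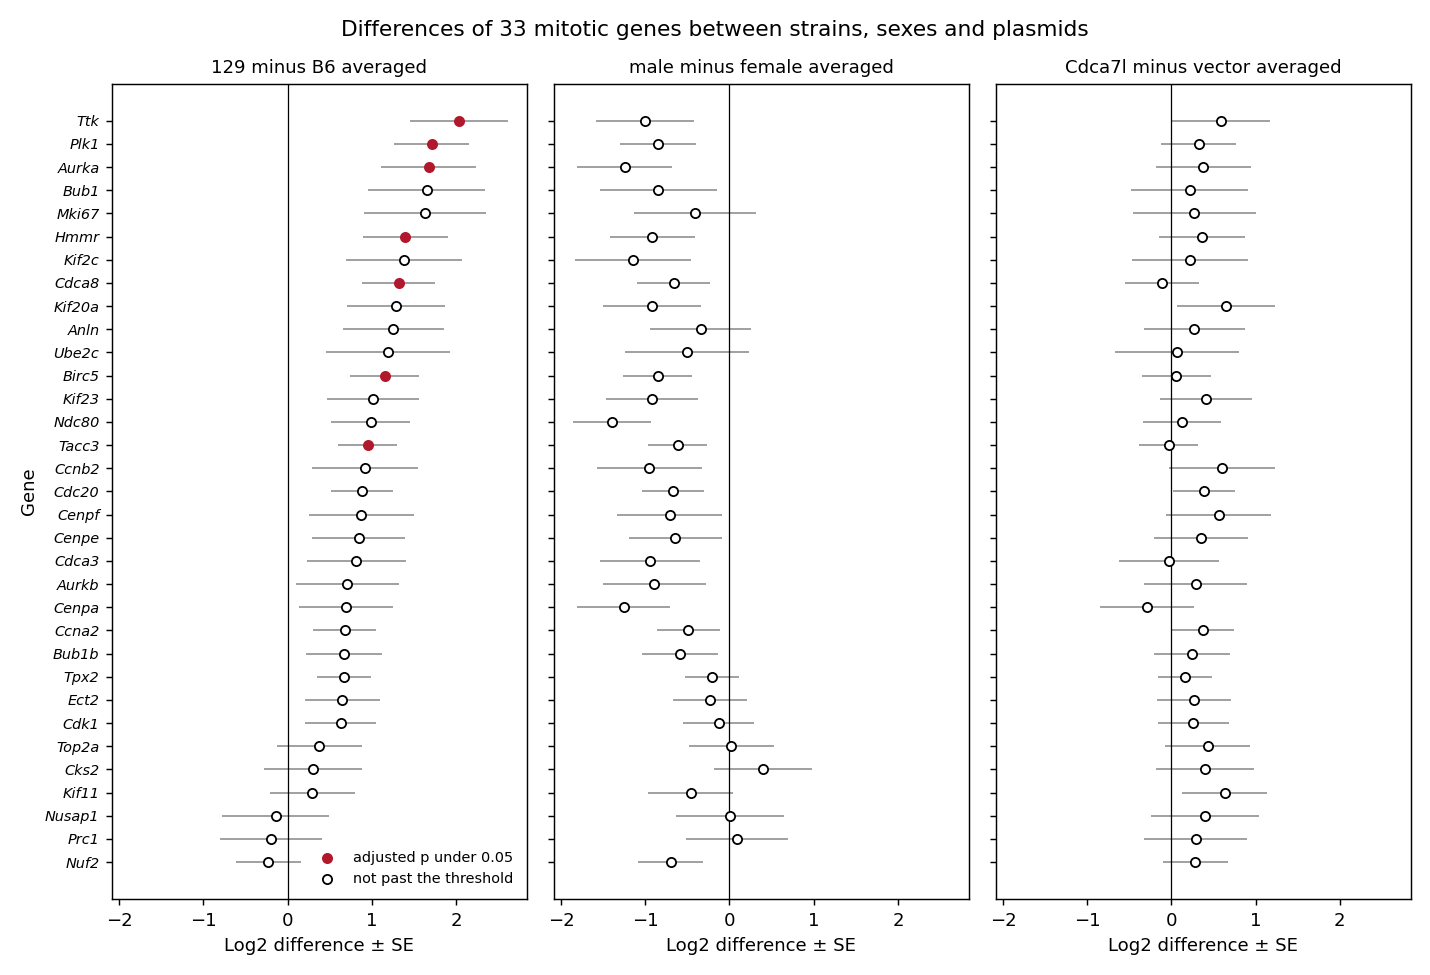
Log2 differences ± SE of the 33 members for 129 minus B6, male minus female and Cdca7l minus vector, each averaged over the other factors, with genes ordered by the strain difference. Filled points passed an adjusted p of 0.05, which 7 members did, all between the strains.

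Markers of other cells also differed between the strains. Of 8 tested fibroblast and meningeal markers 4 passed (25.2% of all tested probe sets did), all higher in 129, and their summed level was 48.6 to 102.1 on 129 arrays, against 47.3 to 61.8 on B6 arrays. Of 8 tested ependymal and choroid plexus markers 6 passed, all lower in 129. Summed over all 10 measured markers of that list, levels were 34.1 to 80.5 in 129 and 56.3 to 91.1 in B6. Of 12 tested astrocyte markers 6 passed, all lower in 129. Summed over all 13 measured astrocyte markers, levels were 109.4 to 154.3 in 129 and 134.6 to 155.7 in B6. Of 8 tested microglia markers none passed. The highest fibroblast scores, 4.43 to 4.57, belonged to 129 male 3(1) and 5(1) with Cdca7l and with vector, whose members' scores lay between -0.07 and 0.62. The part of these cells in the strain difference was not tested.

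The same marker lists moved with the members within 129 females. The astrocyte score was -2.14 and -1.32 on the 129 female Cdca7l arrays 4(1) and 2(1), and -2.54 and -1.32 on the vector arrays of those clones, against -0.14 or above on the other 129 female arrays. The ependymal score was -3.16 and -2.94 with Cdca7l and -3.30 and -2.59 with vector, against -0.65 or above. Over the 29 arrays outside 129 females the within-group correlation of the members' score with the astrocyte score was -0.02, against -0.60 over all 37, and that with the ependymal score was 0.41, against -0.42. Their part in the members' levels was not tested. The score also correlated with the upper quartile of the array, at 0.60 over all arrays, 0.35 without 129 female vector 1(3) and 0.59 without the 129 females.

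Other mitotic genes, listed separately from the 33, also lay mostly higher in 129. Of 59 tested, 52 lay higher in 129, with a median of 0.75, and 11 rose while 2 fell, where 25.2% of all tested probe sets passed. Trip13, a checkpoint ATPase, rose by 1.89 ± 0.698 and Fbxo5, an inhibitor of the anaphase-promoting complex, by 1.41 ± 0.504, and Depdc1a rose by 1.22 ± 0.453. Pttg1, the securin gene, went the other way, at -1.39 ± 0.225 (adjusted p = 3.56e-05). Between the sexes in 129, where 8.77% of tested probe sets passed, 4 of 59 fell in males: Depdc1a at -2.48 ± 0.650, the separase gene Espl1 at -1.72 ± 0.455, the kinetochore gene Ska1 at -1.66 ± 0.488 and Bub3 at -0.43 ± 0.117. Mean levels of Depdc1a (3.46), Espl1 (2.42) and Ska1 (3.76) lay near or below the background level of 3.19, where fold differences are compressed. This limit also holds for the strain difference of Depdc1a. With Cdca7l, averaged, 50 of 59 lay higher, with a median of 0.17 and no call. Their score followed the members' score within groups with r = 0.99 over 37 arrays and 0.94 without the 129 females.

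Genes of S phase and DNA replication followed less closely. Of 29 tested, 28 lay higher in 129, with a median of 0.66, and 9 rose, where 25.2% of all tested probe sets passed. Cdc6, which loads the replicative helicase, rose by 1.57 ± 0.563, the helicase subunit Mcm5 by 1.49 ± 0.491, Mcm10 by 1.24 ± 0.390 and the licensing factor Cdt1 by 1.02 ± 0.313. In 129, 3 fell in males: Mcm10 at -2.28 ± 0.559, Cdt1 at -1.53 ± 0.449 and the clamp loader subunit Rfc4 at -1.37 ± 0.293. With Cdca7l 17 of 29 lay higher, with a median of 0.05 and no call. Their score correlated with the members' score at 0.88 (Spearman's rho 0.76), at 0.78 without the 2 arrays farthest from the median and at 0.54 without the 129 females. The array of 129 male Cdca7l 1(4) had a members' score of 1.21 and an S phase score of -0.31, and that of 129 male vector 5(2) had 0.48 and 0.96, so the lists came apart on single arrays.

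**Figure D5:**
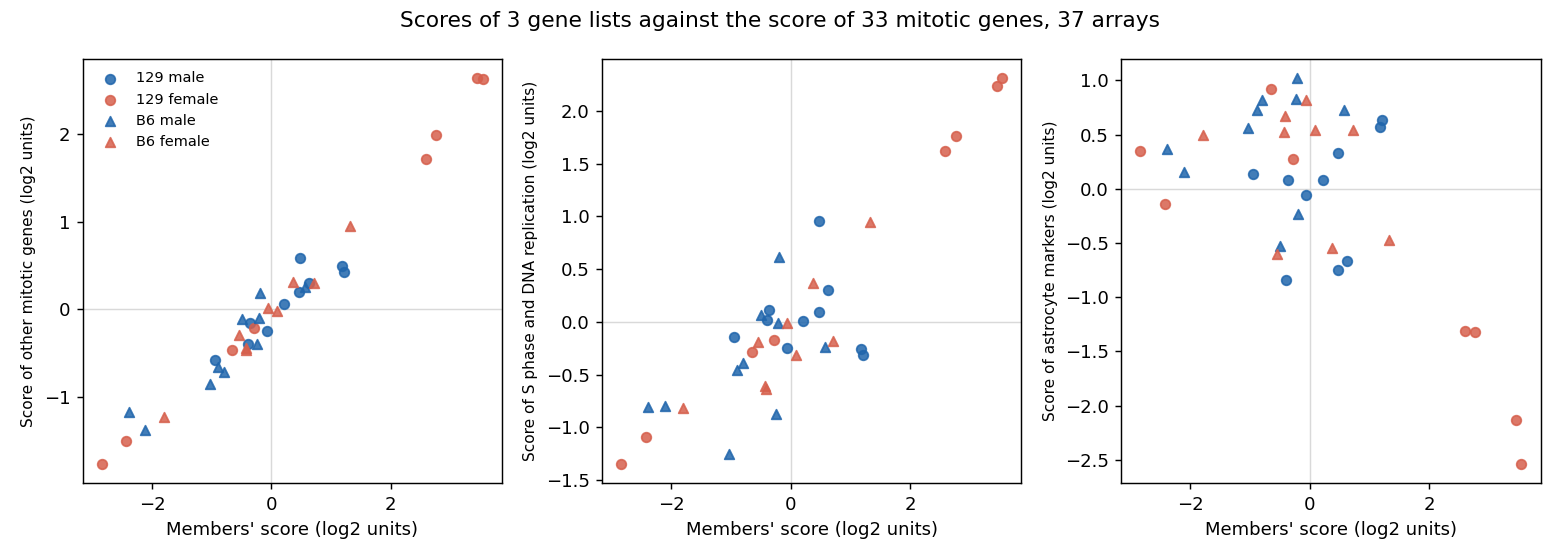
Scores of 3 gene lists (vertical axes, log2 units) against the members' score (horizontal axes) on 37 arrays, with strain by symbol (circles 129, triangles B6) and sex by colour (blue male, red female). Other mitotic genes lie on a line, S phase genes scatter outside 129 females, and the astrocyte score drops on 129 female 4(1) and 2(1).

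Of 20 tested regulators of mitotic transcription, 2 rose and 1 fell in 129, where 25.2% of all tested probe sets passed. Foxm1, the forkhead activator of G2/M genes, rose by 0.81 ± 0.233 (adjusted p = 0.0112) and fell in 129 males by 1.17 ± 0.335 on the log2 scale (adjusted p = 0.0299). E2f8, a repressor of the E2F family, rose by 1.11 ± 0.402 (adjusted p = 0.0414), and Mybl1, which acts in germ cells in mice, was lower at -1.39 ± 0.248 (adjusted p = 0.000127). Mybl2, the activator of the same family in dividing cells, exceeded the background level on 1 array. Within groups Foxm1 and E2f8 followed the members' score (r = 0.79 and 0.77), as did Lin54 (0.74), the CHR-binding subunit, while the retinoblastoma gene Rb1 (0.14) and Rbl2 (0.10) had values near 0. Without 129 female vector 1(3) the values were 0.75 for Foxm1, 0.80 for E2f8 and 0.61 for Lin54, and those of Rb1 (-0.39) and Rbl2 (-0.21) turned. The score of this list correlated at 0.82 with the members' score over 37 arrays and at 0.27 without the 129 females.

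Among 6 tested CDK inhibitors 1 passed: Cdkn1b, which encodes p27, was lower in 129 at -0.68 ± 0.144 (adjusted p = 0.000959). Cdkn1a, the p21 gene, correlated with the members' score at -0.54 within groups, Cdkn1b at 0.57 and Cdkn2d at 0.58. Without 129 female vector 1(3) the values were -0.38, 0.40 and 0.52. The score of the inhibitors correlated at 0.62 with the members' score over 37 arrays and at -0.29 without the 129 females. Of 14 tested genes of the anaphase-promoting complex, Cdc23 at 0.46 ± 0.103 and Anapc5 at 0.26 ± 0.0775 rose in 129, and Fzr1, its G1 activator, fell in 129 males at -0.53 ± 0.143. None of the 20 regulators, 6 inhibitors or 14 complex genes passed with Cdca7l.

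Of 12106 other genes ranked by the correlation of their within-group deviations with the members' score, the most alike were Ckap2l (r = 0.96), Kif20b (0.95), Shcbp1 (0.95), Sgo1 (0.94), Cdkn3 (0.93), Pimreg (0.93), Cip2a (0.93), Cenpi (0.93), Kpna2 (0.92) and Racgap1 (0.92). Of these, 8 are in the list of other mitotic genes and Cdkn3 and Cip2a are not. The median r over all ranked genes was 0.13. The most opposed were Foxo3 (-0.84), Synpo (-0.77), Ankrd12 (-0.77), Nfkb2 (-0.77), Norad (-0.76), Lpin1 (-0.76), Ptgr2 (-0.76), Cst3 (-0.76), Usp6nl (-0.75) and Ctsb (-0.75). Foxo3 encodes a forkhead factor active in resting cells and Ctsb a lysosomal protease. In log2 units per unit of the members' score, the slopes of the 10 opposed genes ran from -0.51 for Nfkb2 to -0.09 for Cst3, and those of the 10 most alike from 0.31 for Kpna2 to 1.45 for Cdkn3.

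Of the 33 members, 23 had further probe sets, 40 in all, of which 25 were tested. In 23 of these 25 the within-group deviations correlated above 0 with those of the chosen probe set, and in 21 above 0.5. The exceptions were both for Tpx2, at -0.53 and -0.48, while the remaining further probe set of Tpx2 reached 0.81. Of the chosen probe sets 6 carry the suffix _s_at or _x_at, which marks probes shared with other transcripts, those of Aurkb, Bub1b, Cdc20, Cdca8, Kif2c and Prc1, so a part of their signal can come from other genes.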

How the data were processed

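The deposited table holds log2 values for 45101 probe sets on 37 arrays, which the authors made with GCRMA and Partek 6.5 per the submitters' processing notes. Per the labels, 10 ng of RNA was amplified and labelled with biotin. Values were used as deposited. The sources used here do not give whether all arrays were normalized jointly. Precision is limited by the number of arrays. Gene names came from the platform annotation, updated by Entrez ID (34754 of 34958 probe sets with 1 symbol matched, and 932 with several and 9211 with none named no gene).

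Probe sets above the median of the table (3.19) on at least 4 arrays were tested, 25579 in all, and 64 controls were left out. limma 3.58.1 under R 4.3.3 fitted 8 group means with 29 residual degrees of freedom, with Benjamini-Hochberg adjustment over all tested probe sets and a threshold of 0.05 in each of 12 comparisons. The fit was tested on simulated data. Unless another test is named, p-values are from this fit and measure the spread between arrays. A list score is the mean over genes of values centred on each gene's mean.

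Same-labelled Cdca7l and vector arrays deviated together in every pair of B6 females (r 0.432 to 0.775) and B6 males (0.376 to 0.572). Not every pair did in 129 females (0.061 to 0.716) or 129 males (-0.0887 to 0.623). Same-labelled arrays thus deviated together throughout in B6 alone. The blocks on the clone label and the 15 pairs described above still used the labels of both strains. The main fit used no block, so it counted the arrays of a pair as independent. This includes 129 females 4(1) (r = 0.716) and 2(1) (0.595). Alternatives were other filters, quantile normalization, a floor, array weights, blocks on the clone label, other probe sets per gene and left-out arrays. The members and lists were chosen with earlier results of these data known. Named genes are all members, the inhibitors and regulators, up to 4 called genes of other lists with the largest difference, and the 10 genes most and least like the members' score. Marker genes and anaphase-promoting complex genes named beside them, and Bub3, were named after their values were seen.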

Additional observations from a re-analysis of the deposited data

Results flagged for a closer look

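For each member and for the members' score, the most extreme array of each group was set against the others by Dixon's test. It picked out 22 of 272 values (8.09%), where chance gives about 1 in 20, and as the members move together these are not independent. On 129 male Cdca7l 3(2), 5 members were far below the other 4 arrays: Ccnb2 at 5.01 (others 7.92 to 8.65), Cenpa at 4.02 (6.76 to 7.22), Kif20a at 5.11 (7.61 to 8.01), Ube2c at 7.65 (9.82 to 10.09) and Hmmr at 8.05 (9.84 to 10.37). On B6 male Cdca7l 5.6(1), Ccna2 was low at 7.42 (others 9.63 to 10.12) and Kif23 at 2.31 (5.18 to 5.80), while Plk1 at 1.66 and Ndc80 at 1.96 were below background throughout the group. On B6 male Cdca7l 2(2), Cdk1 was low at 7.58 (others 9.17 to 9.71).

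On the array labelled B6 female vector 5.1(1), Ccnb2 lay at 2.28 (others 7.25 to 7.91), Birc5 at 8.37 (10.39 to 11.14) and Plk1 at 1.69, below background like the rest. On B6 male vector 3(5), Mki67 lay at 7.16 (others 8.75 to 9.08), Cdca8 at 9.03 (9.74 to 9.88) and Anln at 4.75 (6.87 to 7.37). On B6 male vector 2(4), Nuf2 was high at 9.39 (others 7.85 to 8.18) and Cenpa low at 5.52 (6.13 to 6.26). Single values were Top2a at 8.82 on B6 female Cdca7l 4(5) (others 9.68 to 9.84), Aurka at 3.15 on B6 male vector 2(2) (3.55 to 3.63), Cdca8 at 11.07 on 129 male vector 5(2) (9.89 to 10.19) and Ndc80 at 5.28 on B6 female Cdca7l 6(3), where the other 3 arrays were below background at 1.84 to 1.95.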

How the results depend on the processing

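No member was called in any Cdca7l comparison under any alternative run. The 7 strain calls became 3 with no filter on low values, 29 with array weights (a fit whose weights stopped short of convergence), 3 with the random replicate block, 17 without both arrays that stand apart, 0 in males alone and 3 in females alone, the last pair chosen after seeing the data, and 2 to 18 with 1 array left out. The single call between the sexes in 129 became 0 with the random replicate block and with only the groups compared. The count was 2 with values below background raised to it, 16 with array weights and 2 with the probe set of largest variance. It was 3 without both arrays and 0 to 3 with 1 array left out. The stricter filter asked for 19 arrays above background. It left Ndc80 (5 arrays) and Plk1 (8 arrays) untested, so the count of 0 there does not bear on the call of Ndc80. Averaged over strains, sexes gave 21 calls with array weights and 0 to 1 with 1 array left out, and the strain difference of the sex effect gave 3 with array weights. The median within-group SD was 0.909 with the fixed replicate block. With the fixed replicate block the median Cdca7l difference was 0.20 averaged over groups (22 of 33 members higher), 0.47 in B6 females and -0.30 in B6 males, and the blocks made no Cdca7l call. The other 1152 values of counts, medians and SDs stayed within their limits, but the size of those limits is not given here. Their number is therefore no measure of stability. Directions did turn with single arrays: the median Cdca7l difference in 129 females was 0.05, and -1.24 without 129 female vector 1(3). Of single-gene results 6461 stayed within their limits, 134 moved, 112 gained a call and 94 lost one. The causes of these moves were not tested. The number of arrays and the spread between cultures limit these comparisons: the SE of an averaged difference had a median of 0.55 (log2) over the members, so differences of the size seen with Cdca7l were not detectable here.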
